A study of Populus alba x Populus glandulosa with 18 samples.

Results

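The response of the poplar stem to *PagDET2* overexpression was compared between the xylem (XY) and the bark (BA), and the genes described here are the nuclear genes whose response differed between these domains. They were chosen by 1 contrast on the deposited counts, the *PagDET2*-OE over 84K fold change in XY minus the same fold change in BA on the log2 scale, with 3 libraries in each of 4 groups. Of 42950 gene models in the table, 24449 had enough counts to be tested, and 24343 of these were taken as nuclear. The difference was called for 2878 nuclear genes (11.8% of the nuclear genes tested) at an adjusted p of at most 0.05. The other 106 tested models resembled organelle genes and are described apart. The tested libraries were *PagDET2*-OE XY, 84K XY, *PagDET2*-OE BA and 84K BA. *PagDET2*-OE trees carried the *PagDET2* coding sequence of 84K poplar under the 35S promoter, which is active in most cells, and 84K is the untransformed *Populus alba* × *P. glandulosa* clone from which they were made. XY was the surface tissue of the stem left after the bark was taken, and BA, which GEO labels as cambium, held differentiating phloem together with cambium, both from internodes 5 to 12 of trees grown for 2 months without further treatment. The labels name no transgenic line and do not say that replicates were separate trees, so p-values measure the spread between libraries.

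DET2 is the steroid 5α-reductase at an early step of brassinosteroid synthesis. Brassinosteroids are perceived at the cell surface by the BRI1 receptor kinase, which acts through BSK kinases, the BIN2 kinase and BZR transcription factors, and they promote cell elongation and vascular differentiation. In woody stems the cambium gives phloem to the outside and xylem to the inside, and xylem cells then lay down a secondary wall of cellulose, xylan and lignin under NAC and MYB regulators. Most genes of the secondary wall are therefore transcribed far more in XY than in BA.

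The 12 libraries held 7983668 to 12052409 counted reads, and levels are given as CPM, the counts scaled to the TMM-normalised library size. A count of 3 was worth 0.249 to 0.376 CPM before that normalisation. *DET2* (Potri.016G110600, chromosome 16, 11305579 to 11306422 in the *P. trichocarpa* coordinates of the files) had 2569, 2624 and 2716 CPM in *PagDET2*-OE XY, against 7.73, 8.45 and 5.18 CPM in 84K XY. The BA libraries showed the same split, with 2018, 2120 and 2087 CPM in *PagDET2*-OE BA, against 6.44, 5.56 and 5.82 CPM in 84K BA. The fold change was 8.55 on the log2 scale in XY and 8.45 in BA, and the difference of 0.10 ± 0.15 (SE) was not called (adjusted p = 0.721). The domain labels went with marker genes in 84K, where 52 of the 56 tested cellulose and xylan genes of the secondary wall were higher in XY and 24 of the 35 tested phloem genes were higher in BA and 7 higher in XY, among them the sucrose transporter copy *SUC2* (Potri.019G085800), which averaged 1072 CPM in 84K XY and 739.2 CPM in 84K BA. The 3 tested copies of *APL*, a phloem identity regulator, had 0 to 6 reads in each XY library and 14 to 1025 reads in each BA library. Within each of the 4 groups replicate 3 stood apart, with a chi-square per gene of 4.12 to 5.84 between it and the other replicates and of 2.2 to 2.38 between replicates 1 and 2.

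Among the 2878 called genes the difference was positive in 1501 (6.17% of the nuclear genes tested) and negative in 1377 (5.66%). A positive difference means that *PagDET2*-OE was higher against 84K in XY than in BA. In 1484 genes (51.6% of those called) only the XY effect passed the test, in 612 (21.3%) only the BA effect, and in 95 (3.3%) both passed in the same direction. In 329 (11.4%) neither effect passed alone. The remaining 358 genes (12.4%, 1.47% of the nuclear genes tested) were reversed, with both effects called and opposite in sign. *PagDET2*-OE was up in XY and down in BA for 138 of them (0.567% of the nuclear genes tested), and down in XY and up in BA for 220 (0.904%). Without 84K BA replicate 1 the reversed genes numbered 224, and without 84K BA replicate 2 they numbered 219. Without the 4 libraries numbered 3 the called genes numbered 4457 and the reversed genes 689. The nuclear genes as a whole were centred in each domain, with a median effect of 0.00 in XY, −0.02 in BA and a median difference of 0.02.

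A difference of at least 2-fold was called in 796 nuclear genes (3.27%), positive in 225 (0.924%) and negative in 571 (2.35%). Many of these genes were close to the detection limit in a domain. Of the 225 positive ones, 165 averaged under 5 CPM in XY or BA, and of the 571 negative ones 359 did, 343 of them in XY. A group with no read in any library was present for 7 of the positive and 58 of the negative genes. When only genes with at least 5 CPM in both domains were counted, 272 genes had a 2-fold difference, 60 positive and 212 negative, whereas 307 reversed genes were still counted. A reversed gene has to pass in both domains, so a sufficient level in both follows in part from the rule. Of the 24343 nuclear genes tested, 15642 had at least 5 CPM in both domains. The effects in both domains are plotted by gene.

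**Figure D1:**
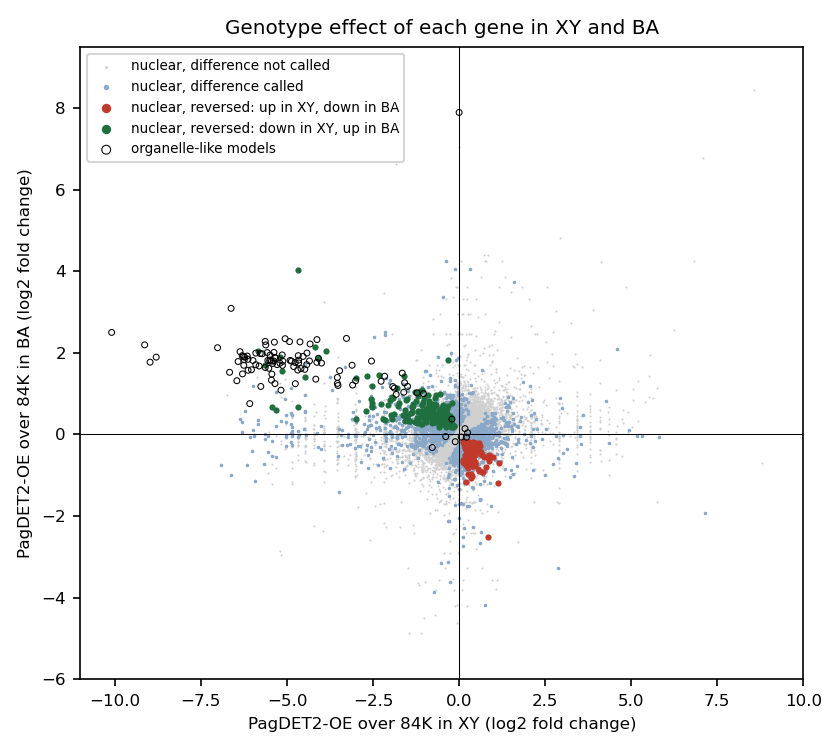
Genotype effect of each tested gene in XY (horizontal axis) and in BA (vertical axis), both as the log2 fold change of PagDET2-OE over 84K from 3 libraries in each group. Red points are the 138 nuclear genes up in XY and down in BA, green points the 220 down in XY and up in BA, blue points the other called nuclear genes, and open circles the organelle-like models, whose median effects were −5.09 in XY and 1.75 in BA.

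Genes that build the secondary wall made up a part of the group that rose in XY and fell in BA. In 4 lists on the secondary wall, together 180 tested genes, the difference was positive in 73 and negative in 2, and 28 genes were reversed, all of them up in XY and down in BA. These 28 genes were 20.3% of the 138 genes of that orientation, whereas the lists held 0.739% of the tested nuclear genes. *FLA11* (Potri.006G129200, chromosome 6, 10546352 to 10547216), a fasciclin-like arabinogalactan protein of fibre walls, had 1231, 1311 and 1458 CPM in *PagDET2*-OE XY, against 925, 950.2 and 1025 CPM in 84K XY. In BA it had 17.8, 20.3 and 16.8 CPM in *PagDET2*-OE BA, against 29.2, 31.7 and 31 CPM in 84K BA. The genotypes did not overlap in either domain, and the effects were 0.46 in XY and −0.75 in BA, a difference of 1.21 ± 0.10 (adjusted p = 1.32e-07). *IRX9* (Potri.006G131000), a glycosyltransferase of the xylan backbone, behaved alike, with 530.1, 540.0 and 538 CPM in *PagDET2*-OE XY, against 421, 411 and 418 CPM in 84K XY. Its BA libraries held 7.36, 6.53 and 6.99 CPM in *PagDET2*-OE BA, against 11.7, 13 and 10.7 CPM in 84K BA. The difference was 1.13 ± 0.10 (adjusted p = 1.78e-07).

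Cellulose synthase subunits of the secondary wall fell in BA, with or without a rise in XY. *CESA7* (Potri.018G103900) had 901, 901 and 870.1 CPM in *PagDET2*-OE XY, against 795, 823 and 782 CPM in 84K XY. It had 29.4, 32.4 and 31.1 CPM in *PagDET2*-OE BA, against 47.3, 53.1 and 51.3 CPM in 84K BA, so that every *PagDET2*-OE library was above the 84K libraries in XY and below them in BA. Its effects were 0.16 in XY and −0.71 in BA, and the difference was 0.87 ± 0.08 (adjusted p = 2.33e-07). The *CESA7* copy Potri.006G181900 had effects of 0.23 in XY and −0.38 in BA, and the *CESA8* copies Potri.011G069600 and Potri.004G059600 had differences of 0.93 and 0.65. *CESA4* (Potri.002G257900), the other subunit, averaged 6035 CPM in *PagDET2*-OE XY and 6238 CPM in 84K XY, an effect of −0.05 that did not pass (adjusted p = 0.518). It averaged 212.9 CPM in *PagDET2*-OE BA and 324.5 CPM in 84K BA, so its difference of 0.56 ± 0.07 (adjusted p = 8.44e-06) came with a fall in BA alone. *COBL4* (Potri.015G060100), a COBRA-like protein required for crystalline cellulose in Arabidopsis, had effects of 0.19 in XY and −0.76 in BA. The *COBL4* copy Potri.004G117200 went the other way in BA, with 110, 110 and 156 reads in *PagDET2*-OE BA against 48, 88 and 99 reads in 84K BA. In XY that copy had 6934, 8149 and 10424 reads in *PagDET2*-OE against 2825, 3123 and 3937 reads in 84K. The chitinase-like gene *CTL2* (Potri.010G141600) averaged 10340 ± 587 CPM in *PagDET2*-OE XY and 8426 ± 559 CPM in 84K XY. In BA *CTL2* averaged 183 ± 1.74 CPM in *PagDET2*-OE BA and 262 ± 12.5 CPM in 84K BA (SD, n = 3 each), and the difference was 0.82 ± 0.07 (adjusted p = 1.36e-07).

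Xylan genes were also among the reversed genes. *GUT2* (Potri.001G068100), a glucuronoxylan exostosin, had effects of 0.49 in XY and −0.40 in BA. *ESK1*, a xylan acetyltransferase, was reversed in 2 copies, Potri.008G069900 with 0.28 in XY and −0.69 in BA and Potri.010G187600 with 0.36 in XY and −0.71 in BA. *TBL33*, of the same protein family, was reversed in Potri.010G184000 (0.47 in XY and −0.68 in BA) and in Potri.008G073300 (0.59 in XY and −0.40 in BA), and the UDP-xylose synthase gene *UXS5* (Potri.001G237200) had 0.21 in XY and −0.50 in BA. The whole list of cellulose and xylan genes also held many copies of *FLA11* and its relative *FLA12*. In this list 30 of 56 tested members (53.6%) had a positive difference and 0 a negative one, beside 6.17% and 5.66% of all nuclear genes. *PagDET2*-OE was higher in XY for 38 members and lower for 0, while 9.4% of all nuclear genes were higher and 8.99% lower. In BA it was lower for 22 and higher for 9, so the list was not uniform there, and of all nuclear genes 5.67% were lower and 5.12% higher. The *FLA12* copy Potri.013G014200, for example, had 295, 293 and 312 reads in *PagDET2*-OE BA against 148, 192 and 234 reads in 84K BA. The list medians were 0.35 in XY, −0.19 in BA and 0.59 for the difference. In 23 to 33 members the difference was positive, and in 0 negative, under the other settings tried.

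Several genes of monolignol synthesis rose slightly in XY and fell in BA. *C4H* (Potri.013G157900), cinnamate 4-hydroxylase, had 7364, 7455 and 7676 CPM in *PagDET2*-OE XY, against 6823, 6852 and 7081 CPM in 84K XY. In BA the values were 127, 127 and 123 CPM in *PagDET2*-OE BA, against 204, 204 and 193 CPM in 84K BA. The XY effect of 0.12 was close to the threshold (adjusted p = 0.036), while the BA effect was −0.67 (adjusted p = 2.76e-09). *CCoAOMT1*, a caffeoyl-CoA O-methyltransferase, was reversed in 2 copies, with effects of 0.28 in XY and −0.56 in BA for Potri.009G099800 and 0.13 in XY and −0.63 in BA for Potri.001G304800. *PAL1* (Potri.010G224100), the entry enzyme of the pathway, had 0.17 in XY and −0.57 in BA, and *CAD* (Potri.009G095800), cinnamyl alcohol dehydrogenase, had 0.19 in XY and −0.70 in BA. Of 44 tested lignin genes, 17 (38.6%) had a positive and 2 (4.55%) a negative difference, beside 6.17% and 5.66% of all nuclear genes. In XY 6 rose and 6 fell, whereas in BA 1 rose and 18 fell, with medians of 0.02 in XY and −0.29 in BA.

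Laccases, which polymerise monolignols in the wall, had larger differences. *LAC17* (Potri.006G087500) had 292, 299 and 347 CPM in *PagDET2*-OE XY, against 203, 199 and 222 CPM in 84K XY. It had 3.85, 3.88 and 5.39 CPM in *PagDET2*-OE BA, against 7.69, 8.13 and 8.62 CPM in 84K BA, and no library of a genotype reached the range of the other. The difference was 1.49 ± 0.15 (adjusted p = 1.21e-06). *IRX12*, a lignin laccase, was reversed in Potri.016G112000, where it averaged 373 ± 26.5 CPM in *PagDET2*-OE XY and 324 ± 5.22 CPM in 84K XY. In BA this copy averaged 6.92 ± 0.18 CPM in *PagDET2*-OE BA and 15.4 ± 1.89 CPM in 84K BA, a fall of more than 2-fold on a low level. The copy Potri.010G193100 had effects of 0.12 in XY and −0.63 in BA. In the laccase list 10 of 28 tested members (35.7%) had a positive difference and 0 a negative one, beside 6.17% and 5.66% of all nuclear genes. The BA effect was down in 10 and up in 1, and the median difference was 0.83. The count of 10 positive members became 6 among genes with at least 5 CPM in both domains.

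Regulators of the secondary wall differed mainly through BA. *ANAC043* (Potri.011G153300), the NAC master switch NST1 of fibre walls in Arabidopsis, had 321, 334 and 364 CPM in *PagDET2*-OE XY, against 288, 300.3 and 302 CPM in 84K XY. The BA libraries held 24.1, 25.6 and 25.3 CPM in *PagDET2*-OE BA, against 42.8, 38.1 and 41.9 CPM in 84K BA. The effect was 0.20 in XY (adjusted p = 0.0276) and −0.71 in BA (adjusted p = 6.09e-07). *IXR11* (Potri.001G112200), the homeobox gene KNAT7, had effects of 0.31 in XY and −0.38 in BA. *MYB63* (Potri.005G096600), an activator of lignin genes, fell in BA alone. Its XY libraries held 26.6, 26.4 and 21.2 CPM in *PagDET2*-OE XY, against 20.1, 18.4 and 18.7 CPM in 84K XY, an effect of 0.37 that did not pass (adjusted p = 0.08). Its BA libraries held 1.84, 2.73 and 1.68 CPM in *PagDET2*-OE BA, against 5.57, 4.11 and 5.74 CPM in 84K BA, and the difference was 1.66 ± 0.25 (adjusted p = 0.000143). Among 52 tested regulators, 16 (30.8%) had a positive and 0 a negative difference, beside 6.17% and 5.66% of all nuclear genes. In BA 17 were lower and 0 higher. In XY 6 rose and 4 fell, and the median was 0.04 against −0.37 in BA. Among genes with at least 5 CPM in both domains 8 had a positive difference.

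**Figure D2:**
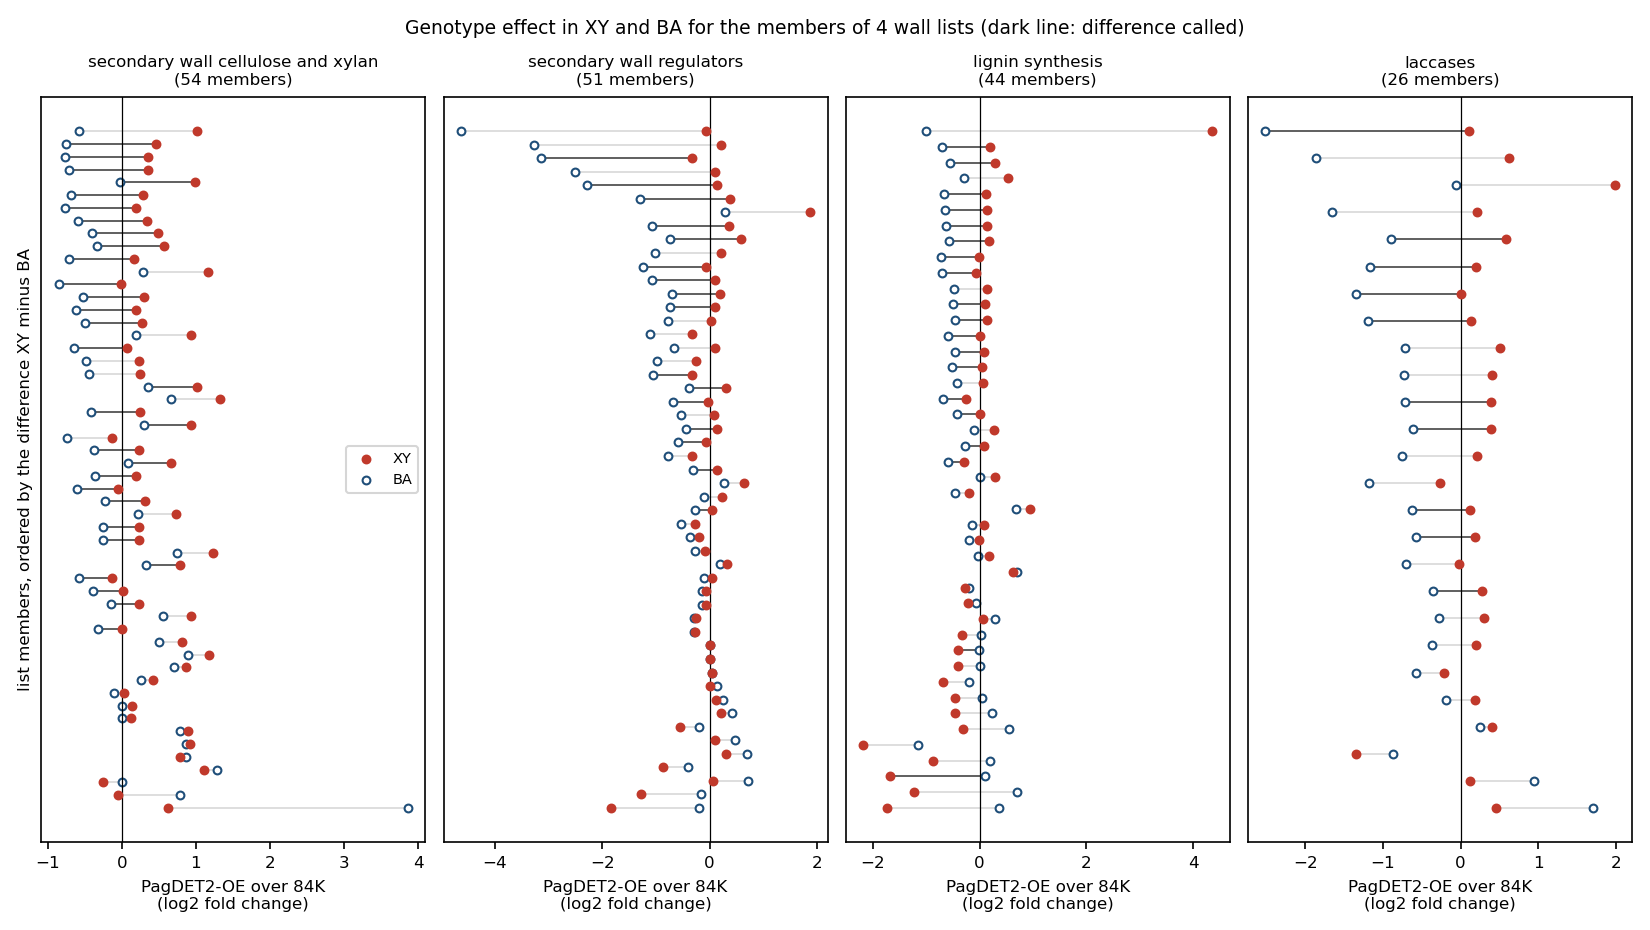
Genotype effect (horizontal axis, log2 fold change of PagDET2-OE over 84K) in XY (red, filled) and BA (blue, open) for the tested members of 4 secondary wall lists, ordered down the page by the difference, with a dark line where the difference was called. Members without a usable error in BA, where they had no reads, are not drawn; in the cellulose and xylan panel most filled points lie right of 0 (38 of 56 tested members up in XY, 0 down).

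Markers of tissue make-up moved in the same libraries. The summed level of the cellulose and xylan list was 63850 to 70440 CPM in *PagDET2*-OE XY against 51410 to 55090 CPM in 84K XY, and 1712 to 1791 CPM in *PagDET2*-OE BA against 2110 to 2252 CPM in 84K BA. For the 468 genes at least 20-fold higher in XY than in BA in 84K, the sum was 184600 to 196600 CPM in *PagDET2*-OE XY against 167400 to 171200 CPM in 84K XY. In BA these 468 genes summed to 3697 to 3757 CPM in *PagDET2*-OE against 4716 to 4822 CPM in 84K. They were selected on the same 84K libraries, and 121 of them had a positive and 11 a negative difference. The list of xylem cell death genes went the other way in BA, with 180.3 to 191.9 CPM in *PagDET2*-OE against 141.4 to 154.4 CPM in 84K. In these bulk samples fewer cells of a type and less RNA per cell cannot be told apart, and the part of tissue make-up in the wall results was not tested. Of the reversed genes of this orientation, 116 were higher in XY than in BA in 84K and 13 were lower.

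Other genes were reversed in the same orientation without being wall genes or being much higher in XY. *DI21* (Potri.010G012100, chromosome 10, 1614870 to 1615572), named for its induction by drought in Arabidopsis, had the smallest adjusted p of all genes up in XY and down in BA. It had 52.8, 49.9 and 52.8 CPM in *PagDET2*-OE XY, against 25.8, 22 and 21.9 CPM in 84K XY. Its values in BA were 40.9, 36.9 and 38.6 CPM in *PagDET2*-OE BA, against 64.9, 65.8 and 59 CPM in 84K BA. In *PagDET2*-OE the level of *DI21* was higher in XY, and in 84K it was higher in BA, and the effects of 1.16 in XY and −0.70 in BA gave a difference of 1.87 ± 0.12 (adjusted p = 5.18e-09). *AtWRKY20* (Potri.001G361600), a WRKY transcription factor, had 318, 288 and 329 CPM in *PagDET2*-OE XY, against 172, 176 and 188 CPM in 84K XY. For BA the values were 73.2, 70.5 and 80.3 CPM in *PagDET2*-OE BA, against 108, 113 and 109.6 CPM in 84K BA. No library of *PagDET2*-OE overlapped 84K for *AtWRKY20*, and the difference was 1.37 ± 0.09 (adjusted p = 9.92e-09). Of the 63 tested WRKY genes 5 (7.94%) had a positive and 3 (4.76%) a negative difference, beside 6.17% and 5.66% of all nuclear genes.

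*PRR1* (Potri.003G100200), a pinoresinol reductase of lignan synthesis in Arabidopsis, had 467, 457 and 492 CPM in *PagDET2*-OE XY, against 315, 304 and 274 CPM in 84K XY. In BA it had 5.87, 6.28 and 5.9 CPM in *PagDET2*-OE BA, against 10.6, 12.4 and 11.3 CPM in 84K BA. Its effects were 0.67 in XY and −0.92 in BA, and the difference was 1.59 ± 0.11 (adjusted p = 9.92e-09). The dirigent-like gene Potri.001G096900, of a family that guides lignan coupling, had 138, 136 and 132 CPM in *PagDET2*-OE XY, against 75.3, 80.7 and 79.2 CPM in 84K XY. Its BA values were low, with 1.93, 1.07 and 1.18 CPM in *PagDET2*-OE BA, against 3.36, 1.85 and 2.15 CPM in 84K BA, and the *PagDET2*-OE and 84K ranges overlapped there. A phospholipase A2 gene (Potri.006G149700) had 10.5, 13.9 and 13.4 CPM in *PagDET2*-OE XY, against 6.67, 8.73 and 7.89 CPM in 84K XY. It had 3.24, 3.22 and 2.19 CPM in *PagDET2*-OE BA, against 4.71, 5.31 and 6.18 CPM in 84K BA, with no overlap in either domain and a difference of 1.61 ± 0.27 (adjusted p = 0.000461).

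*TINY2* (Potri.006G238600), an AP2-type transcription factor, was near the detection limit in BA. It had 6.06, 8.58 and 7.9 CPM in *PagDET2*-OE XY, against 2.58, 3.24 and 4.39 CPM in 84K XY. The BA libraries held 0.96, 0.5 and 0.84 CPM in *PagDET2*-OE BA, against 0.96, 2.17 and 2.01 CPM in 84K BA, and 1 library of each genotype stood at the same value, so the call of the BA effect (−1.18, adjusted p = 0.047) was marginal. The unannotated model Potri.003G195600 had 13.2, 11.7 and 12.2 CPM in *PagDET2*-OE XY, against 5.76, 7.04 and 7.66 CPM in 84K XY, and at most 0.86 CPM in any BA library. Its difference of 3.36 ± 0.60 (adjusted p = 0.000771) rested on BA counts below 1 CPM.

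Genes of sugar transport and sucrose metabolism went both ways. Of 51 tested, 7 rose and 11 fell in XY, where 9.4% and 8.99% of all nuclear genes did. The difference was positive in 8 (15.7%) and negative in 6 (11.8%), beside 6.17% and 5.66%. *SUS4* (Potri.006G136700), a sucrose synthase, averaged 11960 ± 522 CPM in *PagDET2*-OE XY and 8453 ± 101 CPM in 84K XY. In BA it averaged 704 ± 15.2 CPM in *PagDET2*-OE BA and 812 ± 22.6 CPM in 84K BA (SD, n = 3 each), and the effects were 0.50 in XY and −0.21 in BA. The copy Potri.018G063500 rose in XY alone, by 0.70. *AtUGP2* (Potri.017G144700), UDP-glucose pyrophosphorylase, had 867, 874 and 859 CPM in *PagDET2*-OE XY, against 431, 428 and 417 CPM in 84K XY. It had 119, 125 and 118 CPM in *PagDET2*-OE BA, against 114, 115 and 109 CPM in 84K BA, where the effect of 0.10 did not pass (adjusted p = 0.226), and the difference was 0.93 ± 0.07 (adjusted p = 2.01e-08).

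The 220 genes that fell in XY and rose in BA are described by examples, picked after their values were seen and not from a fixed list, so they do not stand for the group. A DnaJ-domain chaperone gene (Potri.007G022600, chromosome 7, 1699729 to 1705969) had 68.2, 69 and 58.1 CPM in *PagDET2*-OE XY, against 254, 277 and 242 CPM in 84K XY. Its values in BA were 246, 241 and 293 CPM in *PagDET2*-OE BA, against 183, 186 and 189.8 CPM in 84K BA. The *PagDET2*-OE levels in BA lay near the 84K levels in XY, and the effects were −1.99 in XY and 0.48 in BA, a difference of −2.47 ± 0.11 (adjusted p = 9.2e-11). *EMB1611* (Potri.001G463700), required for embryo development in Arabidopsis, had 5.65, 5.35 and 4.06 CPM in *PagDET2*-OE XY, against 28.8, 29.1 and 30.9 CPM in 84K XY. It had 25.5, 27.5 and 33.2 CPM in *PagDET2*-OE BA, against 13.9, 14.3 and 18.8 CPM in 84K BA. The difference was −3.44 ± 0.21 (adjusted p = 1.8e-09), and the copy Potri.011G161901 had −2.85. *AUL1* (Potri.002G033800), an auxilin-like J-domain gene, had 74, 81.4 and 58.4 CPM in *PagDET2*-OE XY, against 282, 283 and 260.5 CPM in 84K XY. For BA the values were 115, 117 and 149 CPM in *PagDET2*-OE BA, against 66.1, 68.4 and 66.3 CPM in 84K BA, and the difference was −2.88 ± 0.16 (adjusted p = 5.47e-08).

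Other examples picked in the same way follow, by what they encode. *LINC1* (Potri.017G111400) and *LINC2* (Potri.008G114800), coiled-coil proteins of the nuclear periphery in Arabidopsis, had effects of −1.45 in XY and 0.32 in BA and of −0.94 in XY and 0.46 in BA. *IBM1* (Potri.005G091200), a jumonji histone demethylase, averaged 27.8 ± 4.85 CPM in *PagDET2*-OE XY and 81.6 ± 7.9 CPM in 84K XY. In BA it averaged 77 ± 0.84 CPM in *PagDET2*-OE BA and 61.1 ± 3.3 CPM in 84K BA (SD, n = 3 each). A DEK-domain chromatin protein gene (Potri.001G367400) had effects of −1.12 in XY and 0.25 in BA. For RNA processing there were *ASU1* (Potri.002G181400), the Dicer-like 1 enzyme of microRNA maturation, with −0.84 in XY and 0.49 in BA, *EMB1691* (Potri.015G147200), of the MT-A70 family of RNA adenosine methyltransferases, with −0.96 in XY and 0.41 in BA, and *PRP40A* (Potri.014G013100), a splicing factor, with −0.76 in XY and 0.33 in BA. A Frigida-like gene (Potri.005G044000) had effects of −2.21 in XY and 0.39 in BA.

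*AAP2* (Potri.007G100100), an amino acid permease of the vasculature in Arabidopsis, had 21.4, 26 and 21.9 CPM in *PagDET2*-OE XY, against 80.3, 77.6 and 80.5 CPM in 84K XY. In BA it had 39.8, 39.6 and 45.1 CPM in *PagDET2*-OE BA, against 26.7, 23.5 and 26.3 CPM in 84K BA. The difference was −2.49 ± 0.13 (adjusted p = 3.44e-10). *SULTR1;3*, the sulfate transporter of the phloem in Arabidopsis, was reversed in 2 gene models of chromosome 5, whose reads may be shared. Potri.005G167300 averaged 1.91 ± 0.18 CPM in *PagDET2*-OE XY and 11.1 ± 1.02 CPM in 84K XY. It averaged 12.1 ± 0.4 CPM in *PagDET2*-OE BA and 7.58 ± 0.69 CPM in 84K BA (SD, n = 3 each), a difference of −3.21 ± 0.23 (adjusted p = 2.14e-08). Potri.005G169300 had effects of −2.27 in XY and 0.75 in BA. Another sulfate transporter, *AST68* (Potri.005G079000, SULTR2;1), went the other way, up in XY alone by 1.96 with a difference of 2.10 ± 0.21 (adjusted p = 1.1e-06). *MT3* (Potri.001G400100), a metallothionein, had 3.72, 4.35 and 4.16 CPM in *PagDET2*-OE XY, against 12.3, 12 and 12.6 CPM in 84K XY. The BA libraries held 182, 175 and 162 CPM in *PagDET2*-OE BA, against 114, 115 and 116 CPM in 84K BA, and the difference was −2.17 ± 0.12 (adjusted p = 6.56e-10).

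Pectin methylesterase genes of the group changed strongly at low level. *PME3* (Potri.001G162500) had 0.83, 0.62 and 0 CPM in *PagDET2*-OE XY, against 3.48, 3.38 and 4.06 CPM in 84K XY. Its values in BA were 14.5, 16.9 and 15.2 CPM in *PagDET2*-OE BA, against 4.61, 4.91 and 8.19 CPM in 84K BA. The neighbouring copy Potri.001G162600 had effects of −2.53 in XY and 1.20 in BA, and the counting could split reads between the copies. The difference was −4.37 for Potri.001G162500 and −3.73 for its neighbour, and neither copy reached 5 CPM in any XY library. *ACA4* (Potri.006G047400), an α-carbonic anhydrase, had no read in *PagDET2*-OE XY and 6 reads over the 3 84K XY libraries, so that its reversal rests on those 6 reads. For BA the values were 22.9, 21.6 and 24.6 CPM in *PagDET2*-OE BA, against 8.17, 8.62 and 9.26 CPM in 84K BA. Of 101 tested pectin genes, 11 (10.9%) had a positive and 6 (5.94%) a negative difference, beside 6.17% and 5.66% of all nuclear genes.

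**Figure D3:**
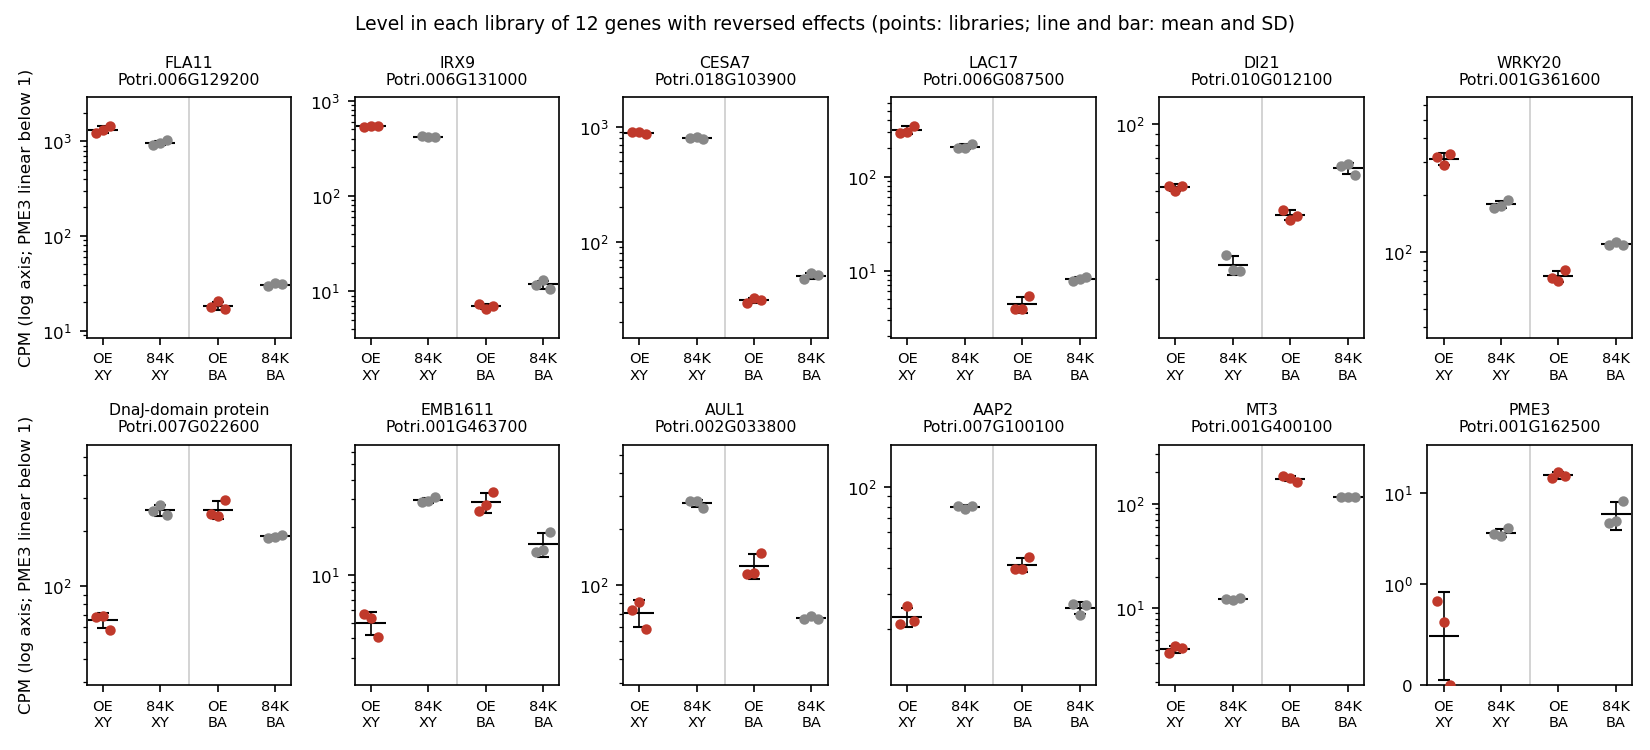
Level of 12 genes with reversed effects in each library (CPM, log axis; PME3 linear below 1), with red points for PagDET2-OE, grey points for 84K, and a line and bar for the mean and SD of 3 libraries. Genes of the upper panels are higher in PagDET2-OE in XY and lower in BA, those of the lower panels the reverse, and LAC17 and AAP2 for example show no overlap between genotypes.

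The genes down in XY and up in BA had long transcripts. The length implied by their counts and FPKM had a median of 3792 bases, and 68.6% exceeded 3000 bases. The genes up in XY and down in BA had a median of 1449 bases with 8.7% above 3000, beside a median of 1643 bases and 19.5% for all nuclear genes tested. The implied length can count the exons of several isoforms, and the span of the locus gave the same order, with medians of 6048, 2556 and 3086 bases for these 3 sets. Among all nuclear genes the share with a negative difference was 2.98% under 500 bases, 3.07% from 1000 to 2000, 10.8% from 3000 to 4000 and 17.4% from 4000 bases. From 500 bases on the share with a positive difference ran the other way, with 7.63% from 500 to 1000 bases and 2.89% from 4000. Under 500 bases it was 4.17%. The median effect of genes from 4000 bases was −0.12 in XY and 0.09 in BA.

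A fit in which the trend of each library with length was taken out, added after these values were seen, left many of the calls in place. Of the 220 genes, 215 were still called and 157 still reversed, with a median difference of −1.02 against −1.26 without this step. Of the 138 genes of the other orientation, 138 were still called and 126 still reversed, with a median of 0.77 against 0.78. The reversed genes of that fit numbered 208 up in XY and down in BA and 167 down in XY and up in BA, so the larger group changed places. Among all called nuclear genes the share with a positive difference was 64.5%, against 52.2% without the step. From 4000 bases, 303 of 2490 genes had a positive and 232 (9.32%) a negative difference, where 72 and 434 did without the step.

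**Figure D4:**
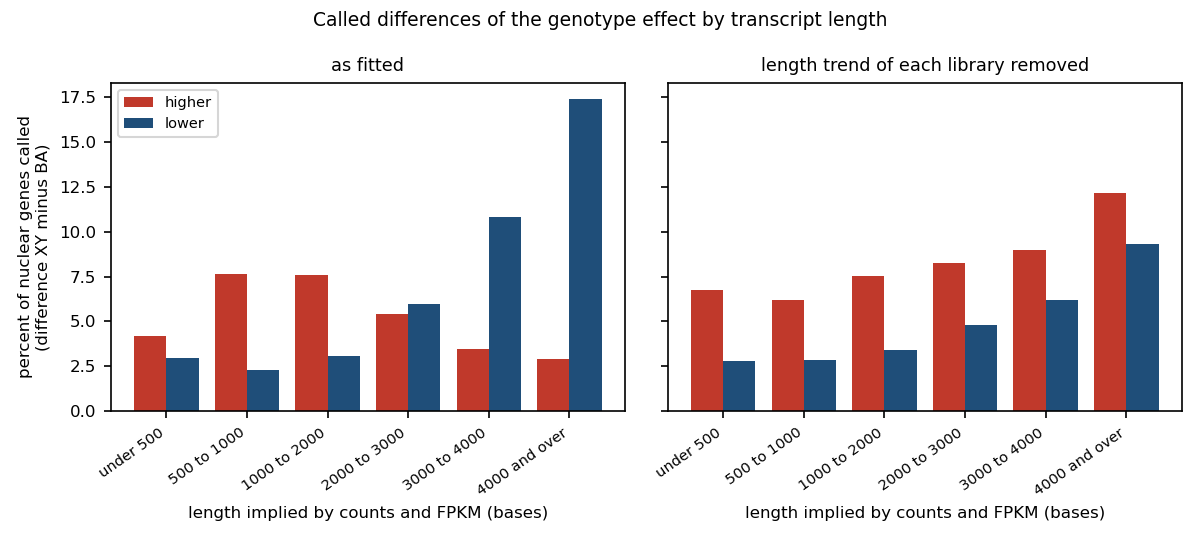
Share of nuclear genes with a called difference (vertical axis, percent) by the length implied by counts and FPKM (bases), as fitted (left) and with the length trend of each library removed (right), for positive (red) and negative (blue) differences. From 4000 bases 434 of 2490 genes are negative and 72 positive as fitted, and 232 are negative and 303 positive with the trend removed.

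Several of the genes with the largest negative differences were nearly silent in XY. *ACO4* (Potri.011G020900), which makes ethylene from its precursor, had 0, 0 and 0 CPM in *PagDET2*-OE XY, against 1.97, 1.83 and 0.9 CPM in 84K XY. In BA it had 3.07, 3.22 and 3.96 CPM in *PagDET2*-OE BA, against 4.61, 5.48 and 6.96 CPM in 84K BA. Taking 3 reads over a group as the floor, and the 84K count without its error, *ACO4* was at least 12.4-fold lower in *PagDET2*-OE XY. In BA the effect of −0.74 did not pass (adjusted p = 0.0577). *MRP6* (Potri.003G034700), an ABC transporter, was at least 5.83-fold lower in *PagDET2*-OE XY, and *ALMT9* (Potri.003G134100), a vacuolar malate channel, at least 4.37-fold lower while its BA effect was 0.66 (adjusted p = 0.000347). A thioredoxin-like gene (Potri.014G134200) was at least 6.92-fold lower in XY, at 0.68 to 1.13 CPM in 84K XY, whereas in BA it had 78.6, 79.8 and 78.8 CPM in *PagDET2*-OE BA, against 79.2, 81.9 and 85.3 CPM in 84K BA. An acyltransferase gene (Potri.004G096132) was at least 8.01-fold lower and the unannotated Potri.012G110500 at least 4.01-fold lower. All 6 genes had 11 to 34 reads over the 84K XY libraries and 121 to 2865 reads over the *PagDET2*-OE BA libraries.

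Several of the genes named for large positive differences were also nearly silent in XY. *anac074* (Potri.005G225800), a NAC gene, had 17 reads over the *PagDET2*-OE XY libraries and none in 84K XY. With the same floor, and the 17 reads taken without their error, this was at least a 5.19-fold rise. *At17.1* was at least 3.66-fold higher with 12 reads against none, and *PP2-A1*, a phloem lectin, at least 1.83-fold higher with 6 reads against none. *PP2-A1* lost its call under 15 of 23 alternatives, DESeq2 and limma-voom among them. An acyltransferase gene (Potri.010G192400) had 2.89, 2.98 and 3.31 CPM in *PagDET2*-OE XY, against 0.15, 0.14 and 0 CPM in 84K XY. The BA libraries held 26.3, 27.1 and 30.5 CPM in *PagDET2*-OE BA, against 28.8, 24.2 and 24.3 CPM in 84K BA, an effect of 0.12 that did not pass (adjusted p = 0.589). A kinase gene (Potri.004G221800) and the unannotated Potri.010G183100 stayed under 1 CPM in every XY library, with differences of 3.47 and 3.45. Potri.001G287800 rose in both domains, with 2.62, 4.23 and 3.84 CPM in *PagDET2*-OE XY, against 0, 0 and 0.45 CPM in 84K XY. Its values in BA were 10.5, 10.5 and 9.85 CPM in *PagDET2*-OE BA, against 6.25, 5.8 and 5.6 CPM in 84K BA. An exception was Potri.011G140200, of the UPF0497 family, with 64.6, 73.4 and 77.2 CPM in *PagDET2*-OE XY, against 7.88, 7.18 and 10.9 CPM in 84K XY. For BA the values were 0.53, 0.74 and 0.25 CPM in *PagDET2*-OE BA, against 0.38, 0.48 and 1.15 CPM in 84K BA, and the difference was 3.49 ± 0.52 (adjusted p = 0.000172).

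The summed level of bark genes also moved in XY. The 219 genes at least 100-fold higher in BA than in XY in 84K summed to 37.75 to 44.27 CPM in *PagDET2*-OE XY against 63.78 to 68.72 CPM in 84K XY. Only 68 to 87 of the 219 genes had a read in each *PagDET2*-OE XY library, against 68 to 94 in each 84K XY library. Their median XY effect was 0, so the sum does not stand for the set. Of these 219 genes, 15 had a negative and 6 a positive difference, where 5.66% and 6.17% of all nuclear genes did. They were chosen on the same 84K libraries. The part of bark tissue in the XY effects of genes nearly silent in XY was not tested.

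Unannotated models were among the largest negative differences. Potri.003G003500 had 3.72, 1.37 and 1.49 CPM in *PagDET2*-OE XY, against 51.2, 50.1 and 62.4 CPM in 84K XY. In BA it had 41.3, 1.57 and 40.4 CPM in *PagDET2*-OE BA, against 2.98, 0.97 and 1.29 CPM in 84K BA, so the rise in BA came from 2 of the 3 *PagDET2*-OE libraries. Its counts varied as widely within each genotype in the stem apex. The apex libraries held 202, 21 and 220 reads in 84K and 8, 188 and 205 reads in *PagDET2*-OE. The difference of −8.72 ± 1.52 (adjusted p = 0.00751) lost its call under 2 of 23 alternatives, limma-voom (adjusted p = 0.0578) and a fit without the libraries numbered 3 (adjusted p = 0.122). Potri.003G030450, a model of 255 bases, had 0.96, 1.24 and 0.53 CPM in *PagDET2*-OE XY, against 15, 15.2 and 16.7 CPM in 84K XY. It had 19, 19.8 and 28.2 CPM in *PagDET2*-OE BA, against 4.52, 4.99 and 8.47 CPM in 84K BA, a difference of −5.99 ± 0.38 (adjusted p = 2.07e-08). Potri.013G092500, of 388 bases, had effects of −2.32 in XY and 1.47 in BA. These short models had effects of the same signs as the organelle-like models, whose medians were −5.09 in XY and 1.75 in BA, and the files give neither of them a description.

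Brassinosteroid genes were called in small numbers, so their shares rest on few genes. Of 16 tested genes of brassinosteroid synthesis, 2 (12.5%) had a positive and 0 a negative difference, beside 6.17% and 5.66% of all nuclear genes. Among genes with at least 5 CPM in both domains 0 synthesis genes were positive. *BR6OX2* (Potri.017G099000), the oxidase that forms castasterone and brassinolide in Arabidopsis, averaged 6.45 ± 1.55 CPM in *PagDET2*-OE XY and 1.5 ± 0.35 CPM in 84K XY. In BA it averaged 0.54 ± 0.12 CPM in *PagDET2*-OE BA and 0.98 ± 0.31 CPM in 84K BA (SD, n = 3 each), and the difference was 3.02 ± 0.52 (adjusted p = 0.000501). *CYP90D1* (Potri.001G200100), which encodes a cytochrome P450 hydroxylase of brassinosteroid intermediates, rose in XY alone, by 1.39, with a difference of 1.46 ± 0.36 (adjusted p = 0.0107). In 56 tested genes of brassinosteroid signalling and response, 8 (14.3%) had a positive difference and 0 a negative one. *BSK1*, the kinase that receives the signal from BRI1, rose in XY alone in 2 copies, with differences of 0.59 for Potri.005G249300 and 0.44 for Potri.002G011800. The brassinosteroid-responsive *EXL5* (Potri.004G206600) had effects of 0.65 in XY and 0.09 in BA. None of the 5 tested inactivation genes was called in the main edgeR fit, and at most 1 was under the other settings tried.

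Auxin genes were called in both directions, 11 positive (8.59%) and 8 negative (6.25%) of 128 tested, close to the 6.17% and 5.66% of all nuclear genes. *IAA29* (Potri.006G255200), an auxin response repressor, fell in BA alone. It had 236, 233 and 224 CPM in *PagDET2*-OE XY, against 253, 252 and 248 CPM in 84K XY. The BA libraries held 25.9, 29.6 and 23.8 CPM in *PagDET2*-OE BA, against 49.7, 51 and 48.8 CPM in 84K BA, and the difference was 0.80 ± 0.09 (adjusted p = 9.35e-06). *LAX3*, an auxin influx carrier, differed through BA in Potri.002G087000 (0.12 in XY and −0.76 in BA) and through XY in Potri.005G174000 (1.05 in XY and −0.21 in BA). Of 55 cytokinin genes 1 was positive (1.82%) and 6 negative (10.9%). The negative ones included the response regulators *ARR2*, *ARR11* and *ARR12*, with differences of −0.57, −1.13 and −0.63. Among genes with at least 5 CPM in both domains 2 cytokinin genes were negative, and with the length trend removed *ARR11* was no longer called. Among 35 gibberellin genes 4 were positive (11.4%) and 1 negative (2.86%), beside 6.17% and 5.66% of all nuclear genes. *GID1B* (Potri.014G135900), a gibberellin receptor, averaged 6.89 ± 1.08 CPM in *PagDET2*-OE XY and 1.56 ± 0.7 CPM in 84K XY. In BA *GID1B* averaged 8.94 ± 1.08 CPM in *PagDET2*-OE BA and 10.4 ± 1.65 CPM in 84K BA, and the difference was 2.29 ± 0.33 (adjusted p = 6.99e-05). *GASA1* (Potri.005G239100), a gibberellin-regulated peptide gene, rose in XY alone by 0.78. The negative gibberellin gene was *ABC33* (Potri.005G210300), a terpenoid cyclase, with −0.67, which became −0.33 with the length trend removed and was no longer called (adjusted p = 0.248).

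Several ethylene genes rose in both domains, and more in XY. *EBF1* (Potri.006G068500), the F-box protein that removes EIN3, had 148, 160.4 and 159 CPM in *PagDET2*-OE XY, against 58.8, 59.4 and 58.5 CPM in 84K XY. It had 113, 113 and 103 CPM in *PagDET2*-OE BA, against 72.9, 74.6 and 72.1 CPM in 84K BA, with effects of 1.41 in XY and 0.58 in BA and a difference of 0.83 ± 0.09 (adjusted p = 1.91e-06). *EBP* (Potri.008G210900), an ethylene response factor, and *AtCTR1* (Potri.010G234700), the negative regulator of the pathway, had differences of 1.37 and 0.68. In the ethylene list of 47 tested genes, 14 rose in XY and 13 in BA, where 9.4% and 5.12% of all nuclear genes did. The difference was positive in 7 (14.9%) and negative in 3 (6.38%), beside 6.17% and 5.66%. Of 53 jasmonate genes 3 were positive and 3 negative (5.66% each), close to the shares of all nuclear genes. The positive ones included 2 copies of *JAI1*, the MYC2 transcription factor (0.62 for Potri.001G142200 and 0.50 for Potri.003G092200). The lipoxygenase *LOX5* (Potri.014G177200) had −2.73.

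**Figure D5:**
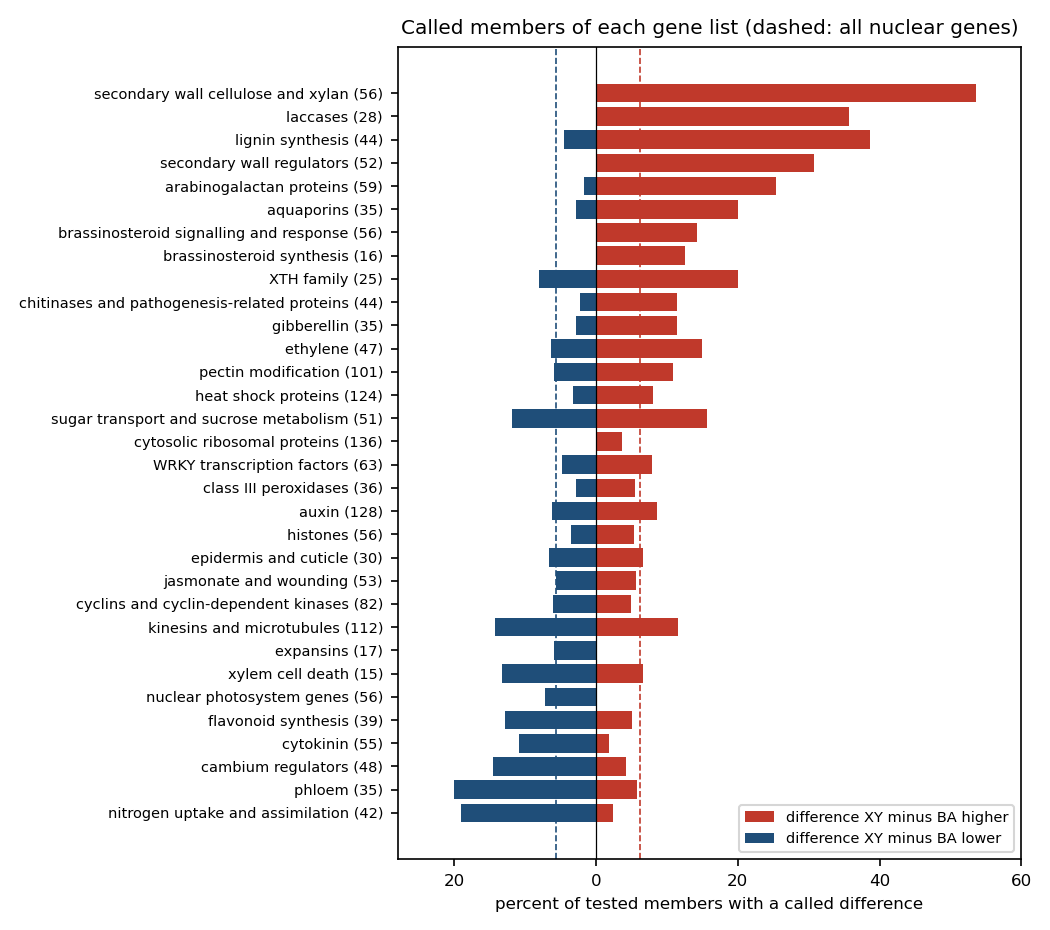
Share of the tested members of each gene list (number in brackets, lists with at least 15 tested members) with a called positive (red, right) or negative (blue, left) difference of the genotype effect, XY minus BA, in percent. Dashed lines mark the shares among all nuclear genes tested, 6.17% positive and 5.66% negative, and the 4 secondary wall lists reach 30.8% to 53.6% positive.

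Other wall lists also held called genes, and that of the arabinogalactan proteins shared *FLA11* copies with the cellulose and xylan list. Of 59 arabinogalactan protein genes 15 (25.4%) had a positive and 1 (1.69%) a negative difference, beside 6.17% and 5.66% of all nuclear genes. The family rose in XY for 36 members and in BA for 19 (medians 0.68 and 0.25), where 9.4% and 5.12% of all nuclear genes did. The 3 reversed members were *FLA11* copies, the one described above and Potri.015G129400 and Potri.012G127900, with differences of 0.56 and 0.77. All of them were already counted in the cellulose and xylan list. In the XTH family, which cuts and joins xyloglucan, 5 of 25 were positive (20%) and 2 negative (8%). Leaving out each library gave 2 to 5 positive. *EXGT-A4* (Potri.003G159700, XTH5) rose in both domains, by 1.57 in XY and 0.90 in BA, while *EXGT-A2* (Potri.010G102300, XTH28) fell in XY alone. *XTH9* (Potri.019G125000) had a difference of 0.53. Of 17 expansin genes 1 (5.88%) was negative, *EXPB3* (Potri.019G101900, −0.60), and 0 were positive. Class III peroxidases had 2 positive, *PA2* and *RCI3* (0.79 and 1.08), and 1 negative, *PRXR1* (−0.22), of 36. These were 5.56% and 2.78%, beside 6.17% and 5.66% of all nuclear genes.

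Lists of cambium, phloem and nitrogen genes leaned to negative differences. Of 48 cambium regulators 2 were positive (4.17%) and 7 negative (14.6%), beside 6.17% and 5.66% of all nuclear genes. In XY 12 were lower and 2 higher, where 8.99% and 9.4% of all nuclear genes were. *ANT* (Potri.002G114800) and *AIL5* (Potri.018G091600), AP2 factors of dividing cells, fell in XY alone. *ANT* had 2.34, 2.98 and 4.16 CPM in *PagDET2*-OE XY, against 6.21, 5.63 and 7.66 CPM in 84K XY, and *AIL5* had 4.82, 5.84 and 7.47 CPM in *PagDET2*-OE XY, against 15, 13.9 and 11.7 CPM in 84K XY. Their differences were −0.99 ± 0.20 (adjusted p = 0.00291) and −0.93 ± 0.16 (adjusted p = 0.000584). *ANT* lost its call under limma-voom (adjusted p = 0.0537). Both were far higher in BA. *ANT* had 1406 to 1971 reads in the 84K BA libraries against 40 to 68 in 84K XY, and *AIL5* had 2023 to 2936 against 99 to 104. The part of cambium tissue in these XY effects was not tested. *LHW* (Potri.001G216900), a bHLH regulator of vascular cell division, had −0.55. With the length trend removed 4 of the 48 were negative, and without that step 4 of the 7 had at least 5 CPM in both domains. In the phloem list 7 of 35 were negative (20%) and 2 positive (5.71%), with medians of −0.43 in XY and −0.02 in BA. The summed phloem list was 1128 to 1182 CPM in *PagDET2*-OE XY against 1311 to 1360 CPM in 84K XY, and 2249 to 2292 CPM in *PagDET2*-OE BA against 2261 to 2290 CPM in 84K BA. Most of the XY sum was *SUC2* (Potri.019G085800), which was reversed (effects of −0.17 in XY and 0.17 in BA). Without this copy the sum was 191.7 to 205.7 CPM in *PagDET2*-OE XY against 260.8 to 264.4 CPM in 84K XY, and 1419 to 1463 CPM in *PagDET2*-OE BA against 1515 to 1557 CPM in 84K BA. The BA sum does not stand for the list, where 4 members were higher and 4 lower in *PagDET2*-OE BA. Another *SUC2* copy, Potri.013G115200, had 1165, 1226 and 1189 reads in *PagDET2*-OE BA against 2162, 2424 and 2811 reads in 84K BA. The summed cambium list was 4070 to 4130 CPM in *PagDET2*-OE XY against 4397 to 4473 CPM in 84K XY. It was also lower in BA, with 3978 to 4029 CPM in *PagDET2*-OE BA against 4089 to 4180 CPM in 84K BA.

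Of 42 genes for nitrogen uptake and assimilation, 8 were negative (19%) and 1 positive (2.38%), beside 5.66% and 6.17% of all nuclear genes. Among genes with at least 5 CPM in both domains 3 were negative. *GLN1;1*, a cytosolic glutamine synthetase, went both ways. The copy Potri.004G085400 had 1.65, 1.87 and 2.03 CPM in *PagDET2*-OE XY, against 4.7, 4.93 and 5.18 CPM in 84K XY, and a difference of −1.74 ± 0.24 (adjusted p = 4.54e-05). The copy Potri.007G069600 rose in XY by 0.47, with a difference of 0.61 ± 0.07 (adjusted p = 1.4e-05). *GDH1* (Potri.019G034800), glutamate dehydrogenase, had −0.54, which became −0.27 with the length trend removed and was no longer called (adjusted p = 0.104). In the flavonoid list 5 of 39 were negative (12.8%) and 2 positive (5.13%). None of these 5 averaged at least 5 CPM in both domains. *CYP75B1*, the flavonoid 3′-hydroxylase, was reversed in 2 copies. Potri.018G051300 had 0.83, 0 and 0.75 CPM in *PagDET2*-OE XY, against 4.55, 3.8 and 4.51 CPM in 84K XY. Its BA libraries held 98.7, 106 and 97.8 CPM in *PagDET2*-OE BA, against 80.6, 75.4 and 76.7 CPM in 84K BA, and the difference was −3.37 ± 0.36 (adjusted p = 7.81e-06). Potri.003G066400 had effects of −0.94 in XY and 0.51 in BA, and the positive *TTG* (Potri.012G006100), a WD40 regulator, had 0.69.

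Cell division genes differed in both directions. Kinesins and microtubule genes rose in XY for 31 of 112 tested members and in BA for 48, where 9.4% and 5.12% of all nuclear genes did. The difference was positive in 13 (11.6%) and negative in 16 (14.3%), beside 6.17% and 5.66%, and 8 were negative with the length trend removed. *MAP65-3* (Potri.012G129600), a microtubule bundling protein of the phragmoplast, rose in BA alone. It had 41, 42.1 and 37.9 CPM in *PagDET2*-OE XY, against 47.4, 40.5 and 43.6 CPM in 84K XY. Its values in BA were 63.7, 60 and 69.1 CPM in *PagDET2*-OE BA, against 42.8, 39.9 and 41.3 CPM in 84K BA, and the difference was −0.76 ± 0.12 (adjusted p = 0.000169). *TUA5* (Potri.019G036000), an α-tubulin, and the motor gene Potri.007G014800 were reversed with the wall genes (0.39 in XY and −0.22 in BA, and 0.18 in XY and −0.51 in BA). Among 82 cyclin and cyclin-dependent kinase genes, 15 rose and 6 fell in XY, and 17 rose and 5 fell in BA. Of all nuclear genes 9.4% rose and 8.99% fell in XY, and 5.12% rose and 5.67% fell in BA. The difference was positive in 4 (4.88%) and negative in 5 (6.1%), close to the shares of all nuclear genes. Negative members were 2 cyclin-related genes (Potri.008G186900 with −1.06 and Potri.010G046000 with −1.31) and the inhibitor *ICK6* (−1.58). Of 56 histone genes 3 were positive (5.36%) and 2 negative (3.57%), no more than among all nuclear genes. *HIS1-3* (Potri.005G116600), a linker histone, fell by 1.19 in XY and by 0.57 in BA. Histone genes Potri.007G096700 and Potri.002G028800 had 0.31 and 0.58.

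Among the other lists, *ACL5* (Potri.006G222200), a thermospermine synthase of xylem differentiation, rose in BA alone. It had 182, 174 and 166 CPM in *PagDET2*-OE XY, against 175, 162 and 170.1 CPM in 84K XY. For BA the values were 34.8, 37.6 and 34.8 CPM in *PagDET2*-OE BA, against 20.3, 21.5 and 22.2 CPM in 84K BA, and the difference was −0.70 ± 0.09 (adjusted p = 3.27e-05). It belonged to the list of xylem cell death genes. There 1 of 15 was positive (6.67%) and 2 were negative (13.3%), beside 6.17% and 5.66% of all nuclear genes. The others called in that list were nearly silent in BA. *AtMC9*, a metacaspase, had 7 reads over the *PagDET2*-OE BA libraries and none in 84K BA, and *RNS3*, a ribonuclease, had 0 to 5 reads in each BA library. Each lost its call under 17 of 23 alternatives. Of 56 nuclear photosystem genes 4 were negative (7.14%) and 0 positive, the negative share being close to the 5.66% of all nuclear genes. In BA 8 were higher and 1 lower, where 5.12% and 5.67% of all nuclear genes were. The negative ones included *LHB1B1* (Potri.005G239200, −0.41), *LHCB3* (Potri.011G126700, −0.61) and *LHCA3* (Potri.014G172400, −0.30). Of 35 aquaporins 7 were positive (20%) and 1 negative (2.86%), and 2 were positive without 84K XY replicate 1. The *PIP2;2* copy Potri.006G128200 had effects of 0.03 in XY and −0.71 in BA.

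Stress lists were called in both directions. Among 44 chitinase and pathogenesis-related genes 5 were positive (11.4%) and 1 negative (2.27%), and the thaumatin genes Potri.017G075500 and Potri.002G020500 had 2.21 and 0.53. Among 124 heat shock protein genes 10 were positive (8.06%) and 4 negative (3.23%), beside 6.17% and 5.66% of all nuclear genes. Without 84K BA replicate 1 the positive ones numbered 5. *HSP70* (Potri.010G206600) was reversed with 0.54 in XY and −0.38 in BA. An HSP20-like gene (Potri.008G062300) rose in both domains, with a difference of 0.56, and *AtHsp90.5* (Potri.010G136800) had −0.48. *WRKY32* (Potri.006G184800) rose in XY alone by 1.51, and the WRKY gene *DSL1* (Potri.016G083600) fell there by 1.05. Of 136 cytosolic ribosomal protein genes 5 were positive (3.68%) and 0 negative by edgeR, for example *RPL24A* (0.34), *RPL23AB* (0.32) and an L34e gene (Potri.017G084500, 0.62). The count of 5 became 0 without *PagDET2*-OE XY replicate 1, 14 with a replicate block and 20 without the libraries numbered 3, and *RPL24A* and *RPL23AB* each lost their call under 9 of 23 alternatives. In the epidermis list 2 of 30 were positive and 2 negative (6.67% each), the positive ones being copies of the acyl-ACP thioesterase *FATB* (0.61 for Potri.015G099600 and 0.40 for Potri.006G155800). These lost their call under 12 and 18 of 23 alternatives, and leaving out each library left 0 or 1 positive. A pectin acetylesterase gene (Potri.012G142300) rose in XY alone, with a difference of 1.06. None of 11 tested CLE peptide genes was called in the main edgeR fit, and at most 1 was under the other settings tried.

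The apex libraries, which were not used to choose the genes, gave a further comparison of *PagDET2*-OE with 84K, 3 libraries each of apex with internodes 1 to 3. Of the 138 genes up in XY and down in BA, 133 were tested in the apex, and 17 were higher (12.8%) and 16 lower (12%) in *PagDET2*-OE. The shares among all nuclear genes tested there were 8.09% higher and 6.9% lower. Of the 220 genes down in XY and up in BA, 211 were tested, with 16 higher (7.58%) and 40 lower (19%), and their median effect was −0.16. Without 84K-1-SAM replicate 1 the called genes of both sets numbered 58, and without 84K-1-SAM replicate 2 they numbered 56, against 89 with all libraries. *AAP2* had an apex effect of −0.83 (adjusted p = 0.0114), and *SULTR1;3* (Potri.005G167300) had −0.71 (adjusted p = 0.00348), so both were lower there as in XY. *PRR1* had −0.38 (adjusted p = 0.0147), as in BA, and *TINY2* had 1.41 (adjusted p = 0.000155), as in XY. *FLA11* (Potri.006G129200) had 0.30 (adjusted p = 0.0949) and *AtWRKY20* had 0.11 (adjusted p = 0.48), which did not pass.

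A larger share of the organelle-like models was called than of any nuclear list named here. Among 264 such models 106 were tested, and the difference was negative in 93 (87.7%) and positive in 0, with 64 reversed (60.4%). Their median effects were −5.09 in XY and 1.75 in BA, and the median difference was −6.83. Their share of all counts was 0.021% to 0.022% in *PagDET2*-OE XY against 0.242% to 0.262% in 84K XY, and 0.239% to 0.485% in *PagDET2*-OE BA against 0.0827% to 0.152% in 84K BA. Reads from plastids or mitochondria and reads from nuclear copies of their genes cannot be told apart in these counts. Leaving the models out before scaling gave 359 reversed nuclear genes. Of 182 tested nuclear genes within 10000 bases of such a model, 22 were called (12.1%, beside 11.8% of all nuclear genes) and 6 reversed (3.3%, beside 1.47%), and without these genes 352 reversed genes were counted.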

How the data were processed

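RNA-seq of *PagDET2*-OE and 84K poplar stems was analysed from the deposited table. The authors aligned the reads with HISAT2 2.0.4 to the *P. trichocarpa* v3.1 genome, which is another species than 84K, and assembled and counted them with StringTie 1.3.0, and the deposited values are raw read counts per gene model. The authors also deposited FPKM, made with a Perl script from the same counts, which were used here for an alternative and for an implied length. Columns that the authors made for their own comparisons were not used.

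Genes passed filterByExpr (edgeR 4.0.16, R 4.3.3) with a minimum count of 10 and a minimum total of 15. Counts of 12 libraries were TMM-normalised and fitted with the robust quasi-likelihood model of edgeR, and p-values were Benjamini-Hochberg adjusted over all 24449 genes tested. A gene was called at an adjusted p of at most 0.05, and reversed where the difference and both effects passed with opposite signs. The fit was tried on simulated counts of independent libraries. Those counts held no effect of the replicate number and no length trend, so the trial does not bear on these. Values after ± are SE for effects and differences. Fitted values of genes with no read in a group depend on the prior count, so bounds are given with a floor of 3 counts over the group. These bounds take the count of the other group as it stands, so they leave out its counting error. Precision covers counting error and the spread of 3 libraries.

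Organelle-like models were recognised by description, and 4 patterns were added after values were seen. Members and gene lists were chosen with earlier results of these data known. Named genes were *DET2*, the 8 largest called differences in each direction, the 6 reversed genes of each orientation with the largest smaller effect (all averaging at least 5 CPM in a group and not within 10000 bases of an organelle-like model), and up to 3 called members of each of 34 lists with the smallest adjusted p. Other genes were named after their values were seen, for their adjusted p or their function. The labels do not say that replicate numbers mark trees or batches, so numbers were not taken as pairs in the main fit. Same-numbered libraries had correlations of at most 0.075, which does not show that pairs are absent. Alternatives were other tools (DESeq2 1.42.0, limma 3.58.1), filters, scalings, library sets and a length correction. No sequences were used here.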

Additional observations from a re-analysis of the deposited data

Results flagged for a closer look

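These results stand out because the same contrast, *PagDET2*-OE against 84K, gave effects in XY and BA that differed by the interaction test of edgeR. They are the 2878 nuclear genes with a called difference, the 358 of them with opposite effects, and 93 of the 106 organelle-like models. Single genes with large opposite effects were, with a higher genotype effect in XY than in BA, *TINY2* (difference 2.31), the unannotated Potri.003G195600 (3.36), the dirigent-like Potri.001G096900 (1.58), *DI21* (1.87), the phospholipase A2 gene Potri.006G149700 (1.61) and *PRR1* (1.59). With a lower genotype effect in XY than in BA they were the unannotated Potri.003G003500 (−8.72), Potri.003G030450 (−5.99) and Potri.013G092500 (−3.78), *ACA4* (Potri.006G047400, −5.88) and the neighbouring *PME3* copies Potri.001G162500 (−4.37) and Potri.001G162600 (−3.73). Potri.003G003500 had 1.57 CPM in *PagDET2*-OE BA replicate 2 and 41.3 and 40.4 CPM in the other *PagDET2*-OE BA libraries. Its counts also varied widely between the apex libraries within each genotype, 84K included.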

How the results depend on the processing

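The 2878 called differences numbered 2460 under limma-voom, 2776 under DESeq2 and 3336 in a fit of all 18 libraries, and 4457 without the 4 libraries numbered 3, a set left out after the data were seen. Leaving out each library gave 2175 to 2857. The 796 differences of at least 2-fold became 423 under limma-trend on log2(FPKM + 1) (121 positive, 302 negative) and 272 among genes with at least 5 CPM in both domains, and leaving out each library gave 700 to 862. On the FPKM scale 930 of the differences of any size were positive and 1648 negative, or 36.1% positive, against 52.2%. The 358 reversed genes became 578 with a replicate block and 689 without the libraries numbered 3, and leaving out each library gave 219 to 366, with 224 without 84K BA replicate 1 and 219 without replicate 2. With a replicate block 3820 genes had a called difference and 852 one of at least 2-fold, and with a replicate block within genotype 3226 and 703. Same-numbered libraries correlated at 0.001 to 0.075, and 6 of 6 libraries matched their own number best between genotypes in XY and in BA, but 4 of 6 between domains in *PagDET2*-OE and 2 of 6 in 84K, which is a hint from the data and not from the design. The difference for *DET2*, never called, was −0.02 on the FPKM scale and −0.11 without the libraries numbered 3, and leaving out each library gave −0.11 (without 84K XY replicate 3) to 0.24. The called apex effects of reversed genes numbered 89, and 56 to 117 with a library left out. The causes of these shifts were not tested. Of 115 named genes 86 kept direction and call under all 23 alternatives each, and *DET2* was the 1 gene that changed direction.

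Genes under 5 CPM in a domain limit the 2-fold counts, and reads were aligned to the genome of another species.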
